A study of Mus musculus with 6 samples.

Results

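The genes described here are the DNA-binding factors of the TCF/LEF family, the coactivator beta-catenin and the Wnt target Axin2, read in DN2 thymocytes with and without E2A. They were taken by name: Tcf7, Lef1, Tcf7l1, Tcf7l2, Ctnnb1 and Axin2, with every probe set that the array annotation gives to only 1 of them. The annotation named 13 such probe sets among 45037, covering 5 of the 6 genes: 2 for Lef1, 2 for Tcf7l1, 4 for Tcf7l2, 3 for Ctnnb1 and 2 for Axin2. It paired no probe set with Tcf7, so Tcf7 was not analysed here. Tcf7l1 has Tcf3 among its older names, whereas the symbol Tcf3 now belongs to the gene of E2A, and the 2 were kept apart by their identifiers.

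The samples were sorted DN2 cells of murine fetal thymus on the FVB background, from wild-type mice (3 arrays) and E2A-deficient mice (3 arrays). DN2 cells carry neither CD4 nor CD8 and stand where progenitors commit to the T-cell fate. The labels do not give the E2A allele, the age of the fetuses, their sex or how many animals each array stands for, and the deficiency is not described as limited to 1 cell type. Per the labels, RNA passed through a repeated round of in vitro transcription before hybridisation.

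TCF/LEF proteins bind DNA through an HMG box. Alone, with Groucho-type corepressors of the TLE family, they can hold target genes down, and with beta-catenin, which accumulates when Wnt ligands bind Frizzled and LRP receptors, they activate them. In the thymus TCF-1, the product of Tcf7, and LEF-1 act early in T-cell development, TCF-1 from the entry into the lineage and LEF-1 in later stages, partly in each other's place. Axin2 is a feedback inhibitor that many Wnt-responding cells switch on and so serves as a readout of beta-catenin activity. E2A proteins bind the E-box, CANNTG.

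Each probe set gave 1 intensity per array, with array medians between 77.4 and 79.0 and upper quartiles between 131 and 136. Arrays of 1 genotype correlated at 0.984 to 0.990 (Pearson's r over probe sets, a description only) and arrays of different genotypes at 0.975 to 0.984. All 9 markers of DN2 cells were measured by probe sets brighter than the median probe set. Among them were Kit (272 to 394 over the 6 arrays), Il2ra (773 to 1225) and Cd44 (386 to 434). The co-receptor gene Cd8b1 lay below the median of every array, while Cd4 and Cd8a lay between the median and the upper quartile of every array. Of the 9, limma called Gata3 higher (1.45) and Notch1 (-1.46), Thy1 (-1.32) and Cd3e (-1.60) lower. The list's summed intensity was 6706 to 7438 in wild-type and 5173 to 5983 in E2A-deficient cells. Notch1 was the largest part of the wild-type sum, with a mean of 2419 against 885 in E2A-deficient cells. The means of Thy1, Cd3e and Il7r were lower too, and those of Kit, Cd44, Il2ra, Ptprc and Gata3 were higher. The brightest probe set of Tcf3 fell from 437 ± 34.4 in wild-type to 249 ± 27.9 in E2A-deficient cells (SD, n = 3 each; limma adjusted p = 0.00864), the direction of its label. The dimmer Tcf3 probe sets changed by -0.49 (1427764_a_at, limma adjusted p = 0.0292) and by -0.24 (1452542_x_at, 0.0926), and the latter did not pass. Adding to the model how bright the 5' beta-actin control was against its 3' control left the brightest with -0.75, against -0.81 without it. This change of the brightest did not pass (limma adjusted p = 0.150, with 0.00333 to 0.150 over its alternatives). This 5'/3' ratio, which falls when RNA or its amplified copy is short, was 0.104, 0.162 and 0.0981 on the wild-type arrays and 0.165, 0.160 and 0.149 on the E2A-deficient ones.

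Lef1 rose in E2A-deficient cells, on both of its probe sets, and no probe set of the other 4 genes passed the test. Differences are E2A deficient minus wild type on the log2(intensity + 1) scale, and a probe set is called at a limma adjusted p under 0.05. Over the whole array 1.79% of probe sets were called and 1.21% were called higher, against 2 of the 13 read here, both higher. Called lower were 0.58% of all probe sets and 0 of the 13 by limma, of which 1 had a negative change at an unadjusted p under 0.05. The groups did not overlap in 4 of the 13, the 2 of Lef1, 1 of Tcf7l2 and 1 of Axin2, against 16.9% of all probe sets.

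**Figure D1:**
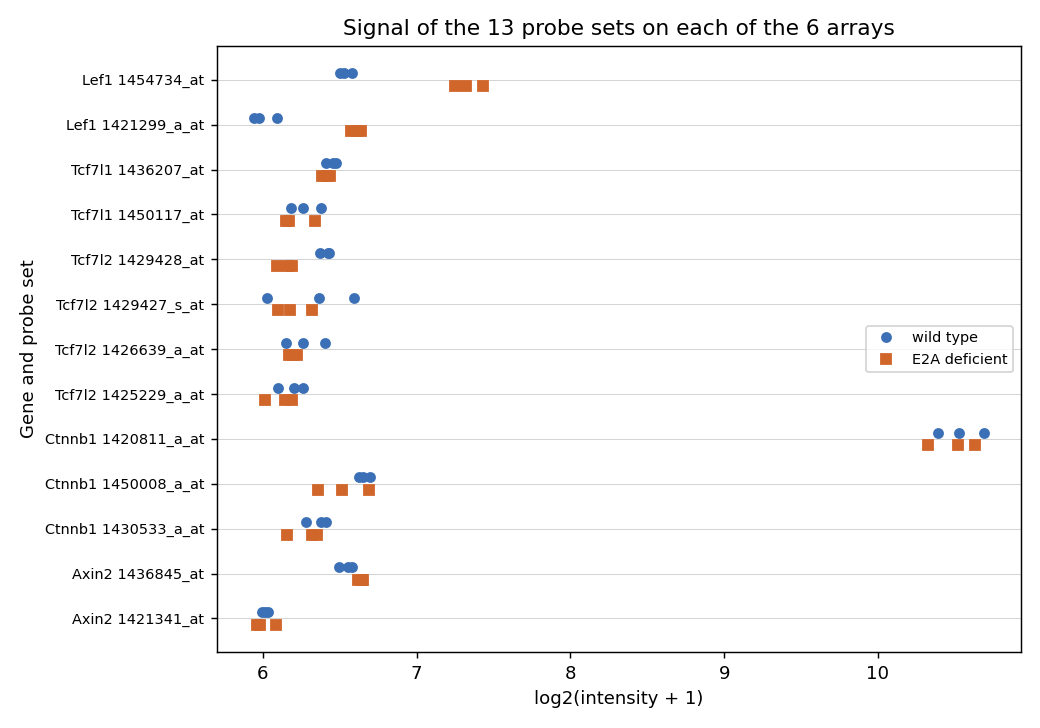
Signal of each probe set on each array, as log2(intensity + 1), with wild-type arrays as circles and E2A-deficient arrays as squares, 3 of each. The squares lie to the right of the circles for both Lef1 probe sets, and 1 Ctnnb1 probe set is far brighter than the rest.

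Lef1 (Entrez 16842, chromosome 3) encodes LEF-1. Its brighter probe set, 1454734_at, read 89.5, 91.1 and 94.5 on the wild-type arrays and 159, 152 and 172 on the E2A-deficient ones. All 3 E2A-deficient values lay far above all 3 wild-type values, and the ratio of the group means was 1.75. The log2 change was 0.80 (SE 0.0644, 95% interval 0.65 to 0.95, n = 3 per group, limma adjusted p = 0.00185). The wild-type arrays were below the upper quartile of their own array and the E2A-deficient arrays above it.

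The other Lef1 probe set, 1421299_a_at, was dimmer, with 61.9, 67.4 and 60.4 in wild-type and 97.0, 98.5 and 94.4 in E2A-deficient cells. Here the wild-type values lay under the array medians and the E2A-deficient values above them but under the upper quartiles. The log2 change was 0.60 (SE 0.0609, 95% interval 0.46 to 0.75, limma adjusted p = 0.00458). Changes this close to the floor of the intensities can understate the fold.

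Both Lef1 calls held in each of the 6 fits to 5 arrays (limma adjusted p 0.00815 to 0.0154 for the brighter and 0.0132 to 0.0280 for the dimmer probe set). In the model with the beta-actin ratio the brighter probe set passed (0.83, limma adjusted p = 0.0429) and the dimmer did not (0.52, 0.0717). Over all alternatives the adjusted p ran from 7.28e-04 to 0.0429 and from 3.39e-04 to 0.0717. Wild-type replicate 2, whose beta-actin ratio lay within the E2A-deficient range, gave 91.1 on the brighter probe set, between the other wild-type arrays, and 67.4 on the dimmer, the highest of the 3. The part of RNA quality in the rise of Lef1 was not tested.

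**Figure D2:**
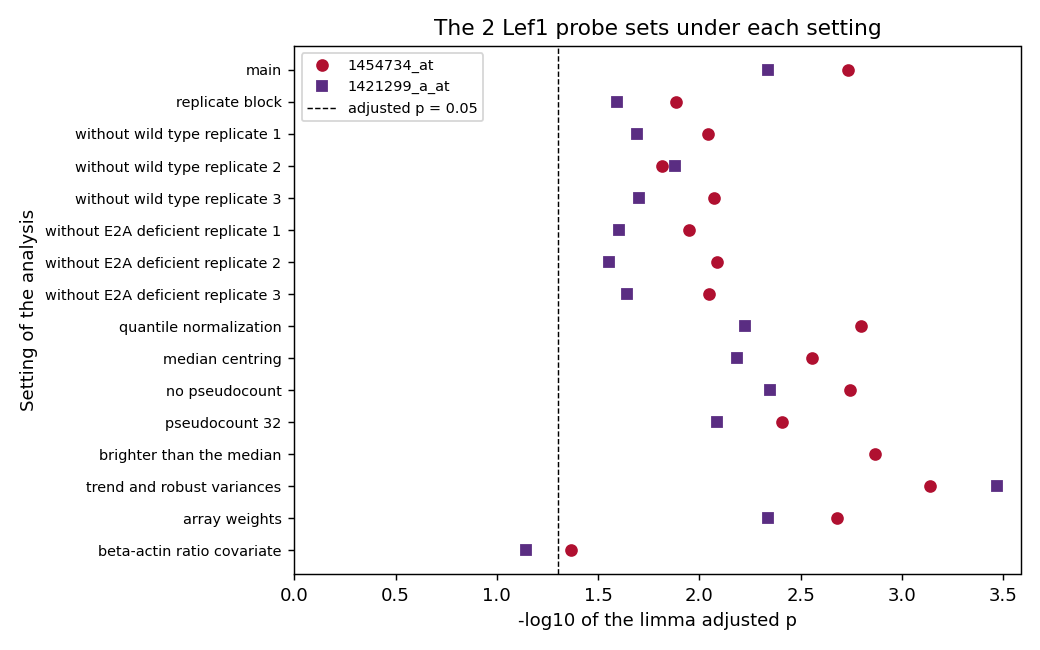
The limma adjusted p of both Lef1 probe sets under the main setting and each alternative, as −log10, with the threshold of 0.05 as a dashed line. 1421299_a_at passes the line under each setting shown except the one with the beta-actin ratio in the model, and has no point where only probe sets brighter than the median were kept.

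Arrays of sorted cells do not separate more Lef1 RNA per cell from a larger share of cells that carry it. LEF-1 is also made by later T cells and by innate-like T cells, so their markers are given here. Of 7 measured markers of double-positive and mature T cells 1, the transcription factor gene Klf2 (0.79), was higher, and the list's summed intensity was 554 to 607 in wild-type and 662 to 680 in E2A-deficient cells. The co-receptor genes on it gave 79.5 to 91.4 for Cd4, 83.6 to 98.2 for Cd8a and 61.3 to 70.9 for Cd8b1 over the 6 arrays, with overlapping groups. Ccr7 (0.45, limma adjusted p = 0.0656) and S1pr1 (0.22, 0.245) did not pass, with all E2A-deficient values above the wild-type ones. Cd6 (-0.26, limma adjusted p = 0.368) did not pass either, with all E2A-deficient values below. An unadjusted p under 0.05 was found for 3 of the 7. The marker lists were chosen with earlier results of these data known, so their counts are a description. Over all genes 2.4% were called higher. Of 10 innate lymphoid and NK markers 6 were higher, and their summed intensity was 1510 to 1661 in wild-type and 3752 to 4331 in E2A-deficient cells. Of these, the costimulator gene Icos changed by 3.10 and Zbtb16, which encodes the factor PLZF of innate-like T cells, by 1.40. The NK receptor genes Ncr1 and Klrd1 and the NK factor gene Tbx21 were under the median of all 6 arrays. The part of these cells in the rise of Lef1 was not tested.

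RefSeq (GRCm38.p6) gives 4 transcript starts for Lef1, and the 250 bases before each were searched for CANNTG, whose reverse complement is the same motif. They are shown because, of the 5 measured genes, Lef1 is the one that was called, and because E2A proteins bind that motif. Capitals mark CANNTG. The windows of starts 1 and 2 overlap and hold the same match, so that of start 2 is left out and the others are printed in order of position, all on the plus strand at chr3:131110047-131110296, chr3:131112541-131112790 and chr3:131156044-131156293.
Lef1 start 1: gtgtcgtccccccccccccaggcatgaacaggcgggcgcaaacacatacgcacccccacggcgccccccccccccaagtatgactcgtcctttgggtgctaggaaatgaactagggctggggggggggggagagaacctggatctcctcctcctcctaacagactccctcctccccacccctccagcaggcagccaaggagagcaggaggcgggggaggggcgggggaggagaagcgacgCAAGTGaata
Lef1 start 3: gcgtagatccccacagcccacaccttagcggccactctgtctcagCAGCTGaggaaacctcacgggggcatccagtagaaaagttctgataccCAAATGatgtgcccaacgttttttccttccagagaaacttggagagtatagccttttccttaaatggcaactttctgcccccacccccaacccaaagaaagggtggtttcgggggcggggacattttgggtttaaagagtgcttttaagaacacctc
Lef1 start 4: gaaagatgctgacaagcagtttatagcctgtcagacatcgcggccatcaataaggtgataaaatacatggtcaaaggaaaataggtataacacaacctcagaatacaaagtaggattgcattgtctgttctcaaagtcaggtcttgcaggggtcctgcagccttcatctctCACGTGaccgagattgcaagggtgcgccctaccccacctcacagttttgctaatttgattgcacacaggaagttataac
The window of start 1 held CAAGTG, that of start 3 CAGCTG and CAAATG, and that of start 4 CACGTG. Of 32851 such windows over all genes on the assembled chromosomes, 66.2% held CANNTG and 6.02% CACGTG, and 4271 windows held CAGCTG. The 250-base windows of Tcf7l1, Tcf7l2, Ctnnb1 and Axin2, 1 or 2 per gene against 4 for Lef1, held none of CANNTG. Tcf7, with which the annotation paired no probe set, has 2 windows, of which 1 held CAGCTG. The TCF/LEF core in the forms CTTTGAA and CTTTGAT, on either strand, was in 7.48% of all windows and in none of those of the 5 genes. These matches describe the letters of the windows only, since no binding was measured.

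Tcf7l1 and Tcf7l2, the TCF/LEF genes best known from embryonic and gut epithelium, gave low signals in both genotypes. The brighter Tcf7l1 probe set read 86.9, 84.2 and 88.0 in wild-type and 82.4, 84.3 and 85.5 in E2A-deficient cells. The groups overlapped and the change was -0.038 (95% interval -0.16 to 0.08, limma adjusted p = 0.881). The dimmer Tcf7l1 probe set gave -0.054 (95% interval -0.24 to 0.13).

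Among the 4 probe sets of Tcf7l2, the brightest, 1429428_at, read 81.7, 85.1 and 85.3 in wild-type and 67.3, 72.2 and 70.7 in E2A-deficient cells. All 3 E2A-deficient arrays lay below all 3 wild-type arrays and below their array medians. The log2 change of -0.26 (SE 0.0549, 95% interval -0.39 to -0.13) did not pass after adjustment (limma adjusted p = 0.0788; over its alternatives 0.0594 to 0.415). The remaining 3 probe sets gave -0.13, -0.076 and -0.070, each with overlapping groups and an interval that includes 0. Taken by gene, with the brightest probe set standing for it, Tcf7l2 passed only with an intensity trend and robust variances (limma adjusted p = 0.0215, against 0.0601 without them and 0.0215 to 0.324 over all alternatives).

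Ctnnb1 encodes beta-catenin, which links TCF/LEF factors to Wnt signals and cadherins to the cytoskeleton. Its brightest probe set read 1651, 1475 and 1344 in wild-type and 1468, 1283 and 1586 in E2A-deficient cells, far above the upper quartile of each array. The groups overlapped almost fully, and the change was -0.044 (95% interval -0.29 to 0.20, limma adjusted p = 0.945). The other 2 probe sets, at 97.5 to 103 and 76.8 to 83.9 in wild-type cells, gave -0.14 and -0.079, and neither passed. The sign of the brightest turned positive without wild-type replicate 1 or E2A-deficient replicate 2. An array measures the RNA of Ctnnb1, whose protein is controlled mainly by its degradation, so these values do not show the level of beta-catenin protein.

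Axin2, the readout of beta-catenin activity, was near the middle of the array in both genotypes. Its brighter probe set read 94.6, 89.1 and 93.0 in wild-type and 97.4, 99.6 and 99.1 in E2A-deficient cells. All 3 E2A-deficient values were higher, by a log2 change of 0.097 (SE 0.0523, 95% interval -0.026 to 0.22) that did not pass (limma adjusted p = 0.550). The dimmer probe set, under the median of all 6 arrays, changed by -0.0049 (95% interval -0.14 to 0.13). Over the 11 probe sets without a call, changes ran from -0.26 to 0.097 and the highest upper bound of an interval was 0.22, under the lowest bound of either Lef1 probe set.

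**Figure D3:**
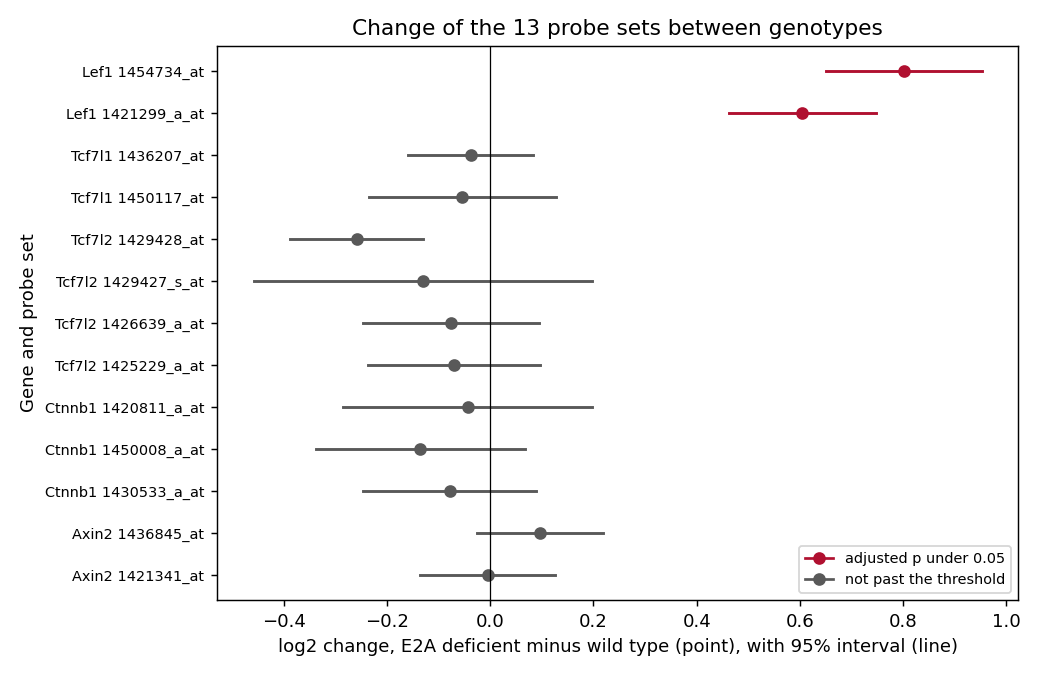
Log2 change of each probe set, E2A deficient minus wild type, with its 95% interval from limma, in the order of the genes in the text. Both Lef1 intervals lie above 0.46, and those of the other probe sets end at or below 0.22.

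Whether Lef1 changed unequally to the other genes was asked on each array by the difference between the log2 value of its brightest probe set and theirs, a test chosen after the results were seen. The change of Lef1 exceeded that of Tcf7l1 by 0.84, of Tcf7l2 by 1.06, of Ctnnb1 by 0.85 and of Axin2 by 0.71. In each of these 4 pairs the 3 E2A-deficient arrays lay above the 3 wild-type arrays. The two-sided exact permutation p was 0.1 each time, the smallest that 3 arrays against 3 allow, and 0.1 after adjustment over the 4 pairs. Lef1 was picked for its change and the same Lef1 values enter all 4 pairs. The test therefore cannot decide the question, and the differences are a description.

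The genes whose profile over the 6 arrays came closest to Lef1 were Gpr183, Gng2 and Tns4. Closeness was the root mean square difference between log2 values centred on each gene's mean, among 11076 genes brighter than the median probe set (11077 for Tcf7l2), as a description with no test. Gpr183, a chemotactic receptor of lymphocytes for oxysterols, differed by 0.052, against a spread of Lef1 about its own mean of 0.41. It read 80.8, 82.8 and 83.4 in wild-type and 146, 125 and 154 in E2A-deficient cells. Gng2, a G protein gamma subunit, differed by 0.054 and Tns4, a focal-adhesion protein of the tensin family, by 0.066. The nearest genes were Fbxw19, Nrn1l and Atp11a for Tcf7l1, Spn, Trub1 and Zbtb12 for Tcf7l2, Zup1, Card10 and Pitpna for Ctnnb1, and Ivd, Bbc3 and Ddr2 for Axin2. The differences of these 12 from their member lay between 0.0091 and 0.034. These members also varied less than Lef1, with spreads about their own means of 0.031 for Tcf7l1, 0.134 for Tcf7l2, 0.126 for Ctnnb1 and 0.055 for Axin2.

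The rest of the Wnt pathway was read from 130 other genes listed by role, of which 128 were measured, each by its brightest probe set. Of these 3 rose, 3 fell and 122 did not pass. That is 4.69% called, against 3.46% of the 18193 genes on the array (2.4% higher and 1.06% lower), and the median change was 0.021 against 0.015. Among them 48 were dimmer than the median probe set. In the model with the beta-actin ratio 0 of the 128 passed by limma (13 at an unadjusted p under 0.05), and without any 1 array 1 to 3 did. Without that covariate 20 had an unadjusted p under 0.05.

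Among 36 ligands and secreted modulators 1 fell, and 27 were dimmer than the median probe set. It was Wls, which carries Wnt proteins to the cell surface, with 109, 111 and 90.5 in wild-type and 73.5, 79.6 and 72.0 in E2A-deficient cells (-0.46, SE 0.0921, limma adjusted p = 0.0442). In the fit over probe sets this one did not pass (limma adjusted p = 0.0636). The remaining 3 for Wls gave -0.23, -0.051 and -0.14, and none passed. Its call was lost without any 1 array other than wild-type replicate 3 (limma adjusted p 0.0833 to 0.151; over its alternatives 0.00607 to 0.151). Wnt9a (0.18) and Notum (0.12), a secreted enzyme that inactivates Wnt proteins, did not pass.

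Of 21 measured receptors and their ligases 2 rose. Rnf43, a membrane ubiquitin ligase that removes Frizzled receptors and is itself a Wnt target, read 67.2, 68.0 and 66.6 in wild-type and 103, 95.2 and 88.1 in E2A-deficient cells. The wild-type arrays were tight and under the array medians, and all E2A-deficient arrays were above them (0.50, SE 0.0701, limma adjusted p = 0.0121). Its call held without any 1 array and was lost in the model with the beta-actin ratio, where the change was 0.46 (limma adjusted p = 0.166; over its alternatives 4.75e-04 to 0.166). Znrf3, the related ligase, gave 0.23 and did not pass (limma adjusted p = 0.164).

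Fzd6, a Frizzled receptor, read 105, 128 and 110 in wild-type and 191, 167 and 161 in E2A-deficient cells (0.60, SE 0.0988, limma adjusted p = 0.0211). Its 2 dimmer probe sets gave 0.14 and -0.017 and did not pass. The call was lost without any 1 array other than wild-type replicate 2 (limma adjusted p 0.0505 to 0.0696), and over its alternatives the adjusted p was 0.00607 to 0.213.

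Of 27 relay and destruction-complex genes, which pass on the Wnt signal or tag beta-catenin for degradation, 0 were called by limma, and 3 had an unadjusted p under 0.05. These were Tnks2 (0.36), a tankyrase that destabilises axins, the casein kinase gene Csnk1g2 (0.27) and the scaffold gene Axin1 (0.27). Leaving out wild-type replicate 1 brought Tnks2 past the threshold (0.46, limma adjusted p = 0.0471; 0.0471 to 0.416 over its alternatives). Of 8 cadherins and other catenins 0 were called by limma, and 2, Ctnnd1 (-0.23) and Cdh1 (-0.26), had an unadjusted p under 0.05. Jup, the closest relative of beta-catenin, changed by 0.15.

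Of 24 nuclear partners 1 rose and 2 fell, with a median change of 0.17. An unadjusted p under 0.05 was found for 10 of the 24, and for 2857 of the 18193 genes on the array. Of the 24, 2 were dimmer than the median probe set, and the share over all genes was not matched for brightness. The histone deacetylase gene Hdac1 went from 443, 432 and 395 to 580, 553 and 654 (0.49, limma adjusted p = 0.0219). Sox13, an HMG-box factor that binds TCF-1, went from 207, 183 and 199 to 158, 152 and 135 (-0.41, limma adjusted p = 0.0409), and lost its call without any 1 of the 6 arrays (0.0601 to 0.114; over its alternatives 0.0272 to 0.362). Hdac1 lost its call in 4 of these 6 settings, all but those without wild-type replicate 1 or E2A-deficient replicate 2 (limma adjusted p 0.0626 to 0.0699; over its alternatives 0.0137 to 0.229).

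Tbl1xr1, a cofactor recruited with beta-catenin, went from 634, 609 and 625 to 507, 454 and 437 on a probe set shared between transcripts (-0.42, limma adjusted p = 0.0220). None of its 5 other probe sets passed, and with shared probe sets left out the change was 0.053. It lost its call in 5 of the 6 settings that leave out an array, all but that without E2A-deficient replicate 1 (limma adjusted p 0.0602 to 0.0832; over all its alternatives 0.0150 to 0.918).

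Of 18 measured target genes besides Lef1 and Axin2, 1 was called, Rnf43. Myc, a Wnt target in gut epithelium and a Notch target in thymocytes, read 393, 498 and 371 in wild-type and 402, 328 and 281 in E2A-deficient cells, with overlapping groups (-0.32, limma adjusted p = 0.385). The list's median change was 0.044. Both Lef1 and Rnf43 are on target lists of beta-catenin, while Axin2, Znrf3 and Notum of the same list did not pass.

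**Figure D4:**
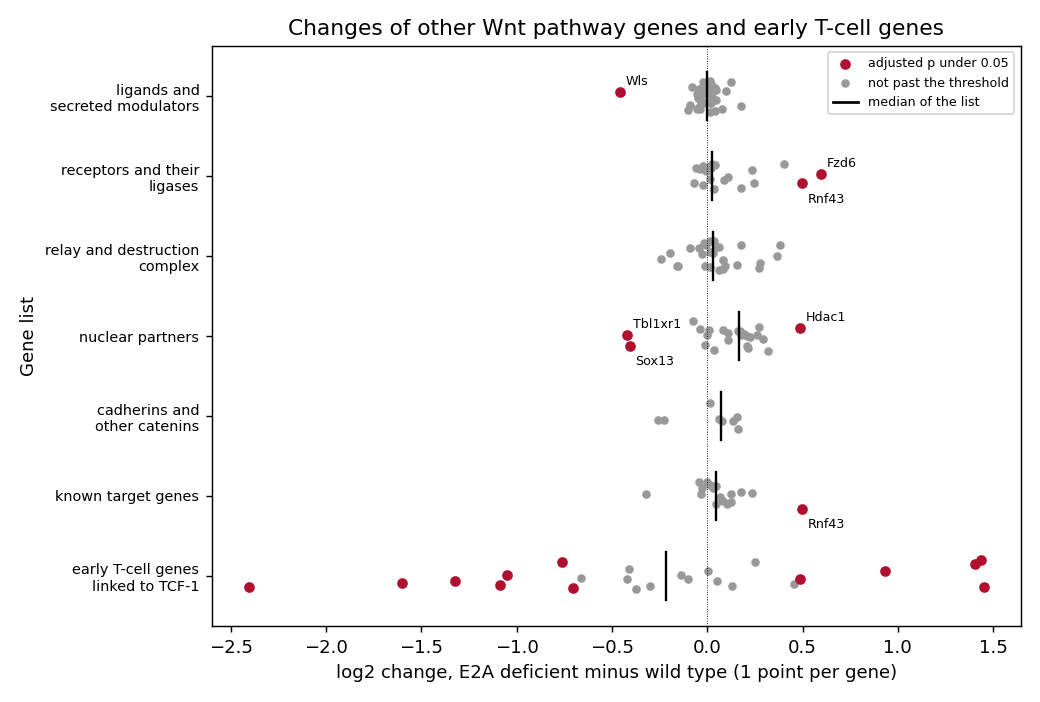
Log2 change of each measured gene, 1 point per gene and list, for 6 lists of Wnt pathway genes by role and for early T-cell genes linked to TCF-1. Called genes are red, black bars are list medians, and the Wnt lists stay between -0.46 and 0.60 while the T-cell list runs from -2.41 to 1.45.

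Genes that lie with TCF-1 in the early T-cell programme moved in both directions. Of 24 measured, 5 rose, 7 fell and 12 did not pass, against 3.46% called of all genes. The list was chosen with its changes known, so its count is a description. Gata3, a factor that TCF-1 is known to switch on, read 280, 274 and 220 in wild-type and 731, 594 and 802 in E2A-deficient cells. It changed by 1.45 (SE 0.135, limma adjusted p = 0.00215), and missed the threshold in the model with the beta-actin ratio, at a change of 1.37 (limma adjusted p = 0.0521; over its alternatives 1.66e-05 to 0.0521).

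Of the genes that fell, several act at the T-cell surface. Thy1 read 365, 427 and 319 in wild-type and 156, 151 and 133 in E2A-deficient cells (-1.32, SE 0.115, limma adjusted p = 0.00158). Cd3g (-2.41), Cd3e (-1.60), the adaptor gene Lat (-1.09) and the receptor gene Cd5 (-0.70) were lower too, as were the nuclear regulators Ets1 (-1.05) and Satb1 (-0.76). The call of Cd5 was lost when wild-type replicate 3 or any 1 E2A-deficient array was dropped (limma adjusted p 0.0501 to 0.0708; over its alternatives 5.65e-04 to 0.123). Beside Gata3, those that rose were Id2 (1.44), an antagonist of E proteins, Zbtb16, Tox (0.93) and the surface gene Cd7 (0.49). Neither of the other 2 probe sets of Id2 was called, and averaged over its probe sets Id2 changed by 0.55 (limma adjusted p = 0.00306). Other genes of the T-cell surface on the list did not pass, among them Cd3d (-0.41), Il7r (-0.37), Ptcra (-0.14), Cd247 (-0.10), Cd2 (0.0064) and Il2ra (0.13). The model with the beta-actin ratio ended the calls of Satb1 (-0.68, limma adjusted p = 0.118, with 0.00164 to 0.118 over all settings tried) and Cd7 (0.53, limma adjusted p = 0.0983, with 0.00553 to 0.0983).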

How the data were processed

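The values deposited by the authors were 1 intensity per probe set and array on a linear scale. The submitters' processing notes name RMA. Its version, and how values came back to a linear scale, are not given in the sources used here. Here log2(intensity + 1) was analysed with no further normalization. The 64 control probe sets were left out. A linear model per probe set was fitted in limma 3.58.1 (R 4.3.3) to all 45037 probe sets, with two-sided p-values adjusted by Benjamini-Hochberg and called under 0.05, and again to 18193 genes, each read by its brightest probe set that names 1 gene. The labels do not say that replicates were separate animals, so p-values measure the spread between these samples, and 3 arrays per group limit the precision. On simulated data over 45037 probe sets made for this comparison, a log2 change of 0.5 was called in 48.6%, 0.8 in 76.4% and 1.5 in 97.2% of changed probe sets, and 4.81% of calls were false.

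Members and lists were chosen with earlier results of these data known. Named were all member probe sets, genes of the Wnt and TCF-1 lists that passed (in lists with fewer than 3, those with the smallest p up to 3), Tcf3 and the 3 most similar genes of each member. Marker genes named beside them were chosen after their values were seen. Markers were listed for other cell types as well: 0 of 7 B-cell and 0 of 5 erythroid markers were called by limma (1 of each had an unadjusted p under 0.05), and 2 of 9 myeloid, 1 of 11 thymic epithelial and 1 of 10 mesenchymal or endothelial markers. Alternatives tried were leaving out each array, blocking on replicate number, quantile normalization, median centring, a pseudocount of 0 or 32, brighter probe sets only, array weights, a trend of the variance with robust estimation, the beta-actin 5'/3' ratio in the model, averaging the probe sets of a gene, and unshared probe sets only. A comparison of Lef1 with Tcf7 was planned and not made. Promoter windows came from RefSeq (GRCm38.p6), and all 5 measured members matched.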

Additional observations from a re-analysis of the deposited data

How the results depend on the processing

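Of the probe sets read here 2 were called, and the count stayed at 2 without any 1 array, with the replicate number as a block, after quantile normalization or median centring, with either other pseudocount, with an intensity trend and with array weights. It was 1 among probe sets brighter than the median, where fewer were tested and 1421299_a_at of Lef1 was left out. It was also 1 in the model with the beta-actin ratio. Over the array 804 probe sets were called, 358 to 563 without any 1 array, 471 with the replicate block and 114 with the beta-actin ratio. The 6 calls among other Wnt genes became 1 to 3 without any 1 array, 2 with the replicate block and 0 by limma with the beta-actin ratio. Deviations from the group mean correlated at 0.041, 0.041 and -0.036 for same-numbered arrays and at -0.076 to 0.037 for the other pairs. These values do not show whether the arrays were handled in pairs. Signs turned in these settings. Tcf7l2 1429427_s_at, at -0.13 with all arrays, gave 0.0017 without wild-type replicate 3 (-0.28 to 0.0017 without any 1 array) and 1426639_a_at 0.024 with the beta-actin ratio. The brightest Ctnnb1 probe set gave 0.032 without wild-type replicate 1 and 0.039 without E2A-deficient replicate 2 (-0.12 to 0.039). The dimmer Axin2 probe set gave 0.0044 without wild-type replicate 3, 0.0093 without E2A-deficient replicate 2 and 0.018 without E2A-deficient replicate 3 (-0.041 to 0.018). Tbl1xr1, called at -0.42, gave 0.053 without shared probe sets, where another probe set stands for it. The cause of these changes between settings was not tested. Lef1 against Tcf7 was not run, since no probe set was paired with Tcf7.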
